A study of Homo sapiens with 30 samples.

Results

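The EGR, NR4A and IER immediate early genes and the serum response factor gene SRF were described in 5 breast cancer cell lines treated with the ligand BMP7 or with vehicle. The members were the 10 genes EGR1, EGR2, EGR3, NR4A1, NR4A2, NR4A3, IER2, IER3, IER5 and SRF, and all 16 probes that carry one of these gene names were taken, out of 41000 probes with 30484 different names on the array. The data comprise 30 two-colour Agilent arrays, 1 for each of the lines HCC1954, MDA-MB-231, MDA-MB-361, T-47D and ZR-75-30 at 30 min, 1, 3, 6, 12 and 24 h. Vehicle-treated cells always carried Cy3 and cells given BMP7 (50 ng/ml) Cy5, and the cells of 3 cultures were pooled per the treatment protocol (the design text speaks of pooled RNA). The lines are established epithelial tumor lines bought from ATCC, and MDA-MB-231 and T-47D were kept in reduced serum during the experiment. Cells had attached for 24 h before vehicle or BMP7 was given. No array from before treatment was analysed here, and a change of medium at that step is not stated in the sources used here, so time after vehicle stands in for time after handling and has no untreated reference.

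With 1 array per line and time point, the independent units were the 5 lines. In the tests over lines, the time points of a line were not counted as replicates of a condition. The pairwise comparison of lines and the single fits of all arrays or of 1 scan batch, however, take their error from single arrays. Their p-values therefore do not measure a spread between independent cultures. The arrays were scanned in 2 batches, the second of which held 6 arrays, 3 of them at 30 min (HCC1954, MDA-MB-231 and ZR-75-30), and lay on 13 slides. Between 55.5% and 69.8% of the probes were well above background in the vehicle channel. The epithelial keratin gene KRT18 was above background on all 30 arrays, and PTPRC, the leukocyte marker, was not above background on any array. The estrogen receptor gene ESR1 was above background on 0 of 6 arrays of MDA-MB-231 and on 6 of 6 of each other line. Its mean vehicle level (log2 over the array median) was only -0.56 in HCC1954. In MDA-MB-361, T-47D and ZR-75-30 it was 4.26, 3.72 and 2.6. PGR, the progesterone receptor gene, was above background on 6 of 6 arrays of T-47D, 5 of MDA-MB-361 and 0 of each other line. PECAM1, an endothelial marker, was above background on 6 of 6 arrays of HCC1954 and 3 of 6 of MDA-MB-231. The part of PECAM1-expressing cells in the results was not tested.

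Immediate early genes are transcribed within minutes of a stimulus such as fresh serum, without need of new protein, and most of their messages decay quickly. EGR1, EGR2 and EGR3 encode zinc finger transcription factors, and NR4A1, NR4A2 and NR4A3 encode orphan nuclear receptors that act without a known hormone. IER2 and IER5 encode related nuclear proteins and IER3 a small protein linked to cell survival. SRF binds the CArG box in the promoters of many of these genes, downstream of MAP kinases and actin, and its own gene is one of its targets. BMP7 signals through receptor kinases to SMAD proteins, whose direct targets such as the ID genes respond more slowly and for longer. MAP kinases can also be reached from BMP receptors.

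The promoters of EGR1, EGR2, NR4A3 and SRF are shown because these genes carried the most matches to the CArG box or to the CRE core bound by CREB. Each is the 250 bases before a RefSeq transcript start (GRCh38.p14), printed on the strand of the gene, with CArG boxes and CRE cores (TGACG or its complement CGTCA) in capitals. The windows are chr5:138465229-138465478 on the plus strand for EGR1, chr10:62816367-62816616 on the minus strand for the last of 3 starts of EGR2, chr9:99821635-99821884 on the plus strand for NR4A3 and chr6:43171019-43171268 on the plus strand for the first of 2 starts of SRF.
EGR1: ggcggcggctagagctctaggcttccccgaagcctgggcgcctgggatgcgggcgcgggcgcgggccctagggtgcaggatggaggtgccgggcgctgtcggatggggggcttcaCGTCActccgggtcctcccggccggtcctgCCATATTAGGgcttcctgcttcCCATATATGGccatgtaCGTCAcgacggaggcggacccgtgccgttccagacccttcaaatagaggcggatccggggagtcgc
EGR2: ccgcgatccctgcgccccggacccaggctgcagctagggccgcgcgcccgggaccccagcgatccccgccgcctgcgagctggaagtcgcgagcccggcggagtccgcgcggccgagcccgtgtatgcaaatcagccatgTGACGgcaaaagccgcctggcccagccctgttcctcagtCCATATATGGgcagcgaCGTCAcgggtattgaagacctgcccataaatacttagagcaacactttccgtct
NR4A3: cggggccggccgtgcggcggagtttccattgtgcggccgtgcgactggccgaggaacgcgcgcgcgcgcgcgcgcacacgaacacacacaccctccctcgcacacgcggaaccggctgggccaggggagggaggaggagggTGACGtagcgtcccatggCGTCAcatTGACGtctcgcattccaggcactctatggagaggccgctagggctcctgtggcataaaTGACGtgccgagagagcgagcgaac
SRF: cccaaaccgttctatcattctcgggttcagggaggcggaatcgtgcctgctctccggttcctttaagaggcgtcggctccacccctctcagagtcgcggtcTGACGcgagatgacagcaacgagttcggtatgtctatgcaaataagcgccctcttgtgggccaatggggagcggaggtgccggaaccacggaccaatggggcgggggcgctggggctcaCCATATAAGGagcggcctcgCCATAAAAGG
The EGR1 window held 2 CArG boxes, CCATATTAGG at 105 to 96 bases and CCATATATGG at 83 to 74 bases before the start. The second of them is also the CArG box of the EGR2 window, at 71 to 62 bases. The SRF window held CCATATAAGG at 30 to 21 bases and CCATAAAAGG in the last 10 bases before the start. In the NR4A3 window 4 CRE cores and 0 CArG boxes were found. None of the capitals overlap.

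RefSeq windows were at hand for 7 of the 10 genes, namely EGR1, EGR2, NR4A1, NR4A3, IER2, IER5 and SRF. EGR2 had 3 windows, NR4A1 and SRF had 2 each and the other genes 1. A gene is counted if any of its windows held a match, whereas the percentages are shares of single windows, so the 2 are not alike. CArG boxes were found in windows of 3 of these genes, whereas 1.16% of all 34943 promoter windows of the same length held one. A CRE core was found in windows of EGR1, EGR2, NR4A3, IER2 and SRF, and 21.2% of all windows held one. The full CRE (TGACGTCA), the EGR site (GCGGGGGCG) and the NR4A site (AAAGGTCA) were searched on both strands too and are in 1.63%, 4.71% and 1.04% of all windows. The SRF window shown holds an EGR site, left in lower case. A match says only that the letters are there.

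In vehicle-treated cells, EGR1 was the member with the most regular time course. Levels are given as log2 of the processed Cy3 signal over the median of the array, and each gene is read from its brightest probe. For EGR1 this probe lies on chromosome 5 of hg18, at chr5:137832790-137832849, and was well above background on all 30 arrays. In HCC1954 the EGR1 level was 7.25, 8.29, 4.96, 4.53, 4.39 and 3.67 from 30 min to 24 h. In MDA-MB-231 it was 4.42, 4.08, 3.56, 2.19, 2.18 and 1.62 at the same times. In MDA-MB-361 it was 6.41, 5.71, 4.34, 4.59, 4.88 and 3.77. Both first-hour levels lay above all 3 late levels in each of these lines. In T-47D the level was 0.89, 1.57, -0.16, -0.73, -1.20 and -1.01, again with no overlap. In ZR-75-30 it was 5.20, 4.86, 4.91, 3.66, 4.22 and 4.25, the flattest course of the 5.

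The first hour and the late times of EGR1 thus did not overlap in 5 of 5 lines, with a smallest gap of 0.61 on the log2 scale. Of 38757 probes with all values, 10 (0.0258%) had this pattern in the vehicle channel, and 1.97% had it in at least 3 lines. The BMP7 channel, which holds the RNA of the other cultures, gave EGR1 in 5 of 5 lines too, among 0.0258% of the probes. Only EGR1 and FOSB, another immediate early gene, were in both sets of 10 probes. This criterion was chosen after the values had been seen. The other members had it in fewer lines of the vehicle channel, with 4 for EGR2, 3 for NR4A1 and NR4A3, 2 for EGR3 and IER2, 1 for NR4A2 and IER5 and 0 for IER3 and SRF. Some of these lines rest on signals not above background. The count for EGR2 includes ZR-75-30, where 1 of 6 arrays was above background, and the line of NR4A2 is T-47D, where 0 of 6 were. For NR4A3 it includes MDA-MB-231, where the first-hour levels of -1.600 and -1.611 barely exceeded a 6 h level of -1.617 that was not above background.

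**Figure D1:**
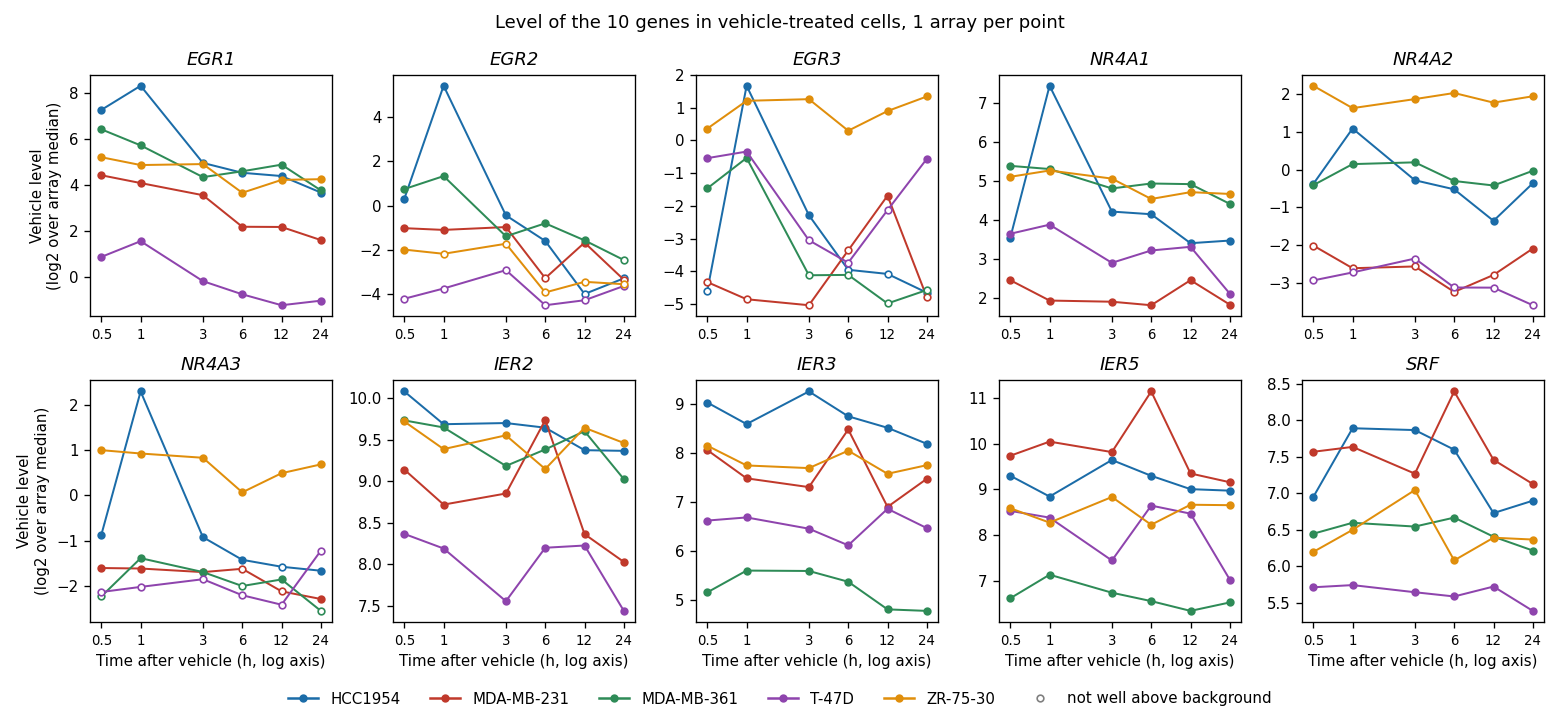
Vehicle level of the 10 genes (log2 over the array median, vertical axes) against time after vehicle (h, log axis), 1 point per array and 1 line per cell line, with open points for signals not well above background. EGR1 was highest in the first hour in all 5 lines, and several genes had a peak at 1 h in HCC1954.

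At 30 min the level of EGR1 exceeded the mean of the line's 6, 12 and 24 h arrays by 3.05 (HCC1954), 2.42 (MDA-MB-231), 1.997 (MDA-MB-361), 1.87 (T-47D) and 1.16 (ZR-75-30). The mean of these log2 differences was 2.10 ± 0.70 (SD, n = 5 lines), the smallest being a 2.23-fold and the largest an 8.30-fold difference. An exact sign-flip permutation test gave p = 0.0625, two-sided, the smallest p that 5 lines allow. Adjusted over all 41000 probes, the difference was not past the threshold of 0.05 (limma, SE 0.26, adjusted p = 0.338). At 1 h the difference was 4.10 (HCC1954), 2.09 (MDA-MB-231), 1.30 (MDA-MB-361), 2.55 (T-47D) and 0.82 (ZR-75-30). In folds the range at 1 h was from 1.76 in ZR-75-30 to 17.1 in HCC1954. The mean was 2.17 (limma, SE 0.42, adjusted p = 0.864). At 3 h the mean was 0.79 (limma, SE 0.24, adjusted p = 0.995).

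No member passed in any of these vehicle comparisons, and neither did any other probe (limma, 0% of probes called at 30 min, 0% at 1 h and 0% at 3 h). At an unadjusted p under 0.05, 5 of 10 members were higher than late at 30 min, 3 at 1 h and 2 at 3 h, and 0 were lower. Over all probes 1722 were higher and 3067 lower at that p at 30 min, 804 and 1005 at 1 h, and 745 and 488 at 3 h. When all 30 arrays entered 1 fit with the line as a block, EGR1 was past the threshold at 30 min (limma, adjusted p = 0.00714) as 1 of 3 probes, and at 1 h (limma, adjusted p = 0.00324) as 1 of 14 probes. That fit takes its error from the spread of single arrays around the line and time means. With scan batch as a further term the adjusted p of limma was 0.0493 at 30 min and 0.0048 at 1 h. Within the first scan batch, also fitted over single arrays, the EGR1 mean was 2.05 at 30 min (limma, adjusted p = 0.989). Only MDA-MB-361 and T-47D had a 30 min array in that batch. At 1 h the mean in that batch was 2.13 (limma, adjusted p = 0.041, 1 of 16 probes called). The BMP7 channel gave means of 2.05 at 30 min, 2.28 at 1 h and 0.68 at 3 h for EGR1.

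EGR2, which is also needed for myelination of peripheral nerve, had one array far above all others. In HCC1954 its level was 0.31, 5.44, -0.45, -1.61, -4.01 and -3.30 from 30 min to 24 h, and the signal was above background on the first 4 of these arrays only. The 1 h value was 132-fold above that of 6 h, the late array with a signal above background. In MDA-MB-361 the level was 0.75, 1.34, -1.40, -0.81, -1.58 and -2.47, so that both values of the first hour were the highest. In MDA-MB-231 it was -1.03, -1.11, -0.98, -3.30, -1.68 and -3.37, with the 3 early values above the late ones. In T-47D no array was above background, and in ZR-75-30 only that of 30 min, at -1.998, was. The probe lies at chr10:64241856-64241915 of hg18.

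Over the 5 lines EGR2 exceeded its late level by 1.80 at 30 min in 4 of 5 lines (limma, SE 0.42, adjusted p = 0.426). The mean difference was 2.98 at 1 h (limma, SE 0.99, adjusted p = 0.993) and 1.54 at 3 h (limma, SE 0.32, adjusted p = 0.995), both above 0 in 5 of 5 lines. The lines include T-47D, where the differences are between signals not above background.

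EGR3 had a peak at 1 h in HCC1954, where its level was 1.67 and above background, against -4.60, -2.29, -3.95, -4.08 and -4.65 on the arrays of 30 min and 3 to 24 h. The 3 late arrays were not above background, and the 1 h level was at least 16.2-fold higher. In MDA-MB-361 the first-hour levels of -1.47 and -0.54 were above background and the other 4 were not. In T-47D the level was -0.54 at 30 min, -0.34 at 1 h and -0.56 at 24 h, and it was not above background between. In ZR-75-30 EGR3 was above background on all 6 arrays, from 0.30 to 1.34, with no order of early over late. In MDA-MB-231 it was above background at 12 h only, at -1.69.

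NR4A1, which encodes the receptor Nur77, was above background on all 30 arrays. In HCC1954 its level was 3.55, 7.45, 4.22, 4.15, 3.41 and 3.48 from 30 min to 24 h, a single high array 13.7-fold above the late mean. In T-47D it was 3.65, 3.89, 2.91, 3.22, 3.317 and 2.11, and both first-hour values were the highest. The same held for MDA-MB-361, with 5.40 and 5.32 against 4.42 to 4.94 later. In ZR-75-30 the first-hour levels were 5.12 and 5.28 against 4.55 to 5.07 later, and in MDA-MB-231 all 6 lay between 1.82 and 2.46. The mean difference from late was 0.43 at 30 min, with 4 of 5 lines above 0 (limma, SE 0.17, adjusted p = 0.426), and 1.17 at 1 h (limma, adjusted p = 0.993). The probe lies at chr12:50739445-50739504 of hg18. On the second NR4A1 probe, also above background on all 30 arrays, the mean difference was -0.21 at 30 min and 0.575 at 1 h. It was above 0 in 2 of 5 lines at 30 min and in 4 of 5 at 1 h. In T-47D that probe was highest at 24 h and lay below its late mean at both times, by -1.62 and -0.95. In HCC1954 it was highest at 1 h as well, there 1.79-fold above late.

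NR4A3, the receptor NOR-1, followed the same course in HCC1954, with -0.87, 2.29, -0.92, -1.42, -1.57 and -1.66 from 30 min to 24 h. Its 1 h level was 14.4-fold above the late mean as measured, in which the 12 h array was not above background. In ZR-75-30 it was 1.00, 0.92, 0.83, 0.07, 0.49 and 0.68, with the 3 early values above the 3 late ones. In the other lines it stayed between -2.55 and -1.22. At 3 h the difference from late was above 0 in 5 of 5 lines with a mean of 0.38 (limma, adjusted p = 0.995). These lines include T-47D, where the difference was 0.09 and NR4A3 was above background on 0 of 6 arrays. NR4A2, the receptor Nurr1, had its highest level of HCC1954 at 1 h too, at 1.09 against -1.36 to -0.28 at the other times, which was 3.58-fold above late. In ZR-75-30 NR4A2 lay between 1.63 and 2.23 and in MDA-MB-361 between -0.42 and 0.19. The hg18 positions are chr9:101668806-101668865 for the NR4A3 probe and chr2:156889973-156890032 for that of NR4A2.

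In HCC1954, EGR1, EGR2, EGR3 and the 3 NR4A genes all had their highest vehicle level on the 1 h array. In the RNA of the BMP7-treated cultures on the same array, the 1 h level minus the late mean was 8.09 for EGR2, 5.78 for EGR3, 3.92 for EGR1, 3.78 for NR4A1, 3.69 for NR4A3 and 1.92 for NR4A2. In the same channel the second NR4A1 probe gave 1.26. As in vehicle, the late signals of EGR2 at 12 and 24 h, of EGR3 at all late times and of NR4A3 at 12 h were not above background there. Both channels share the slide and the scan. The 30 min array of HCC1954 was scanned in the second batch and the 1 h array in the first. In a single fit of all lines with scan batch as a term, EGR1 was past the threshold at both times as given above. That fit averages EGR1 over the lines, with error from single arrays, so it says nothing of HCC1954 alone. Whether scan batch had a part in the 1 h levels of these genes in HCC1954 was not tested.

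**Figure D2:**
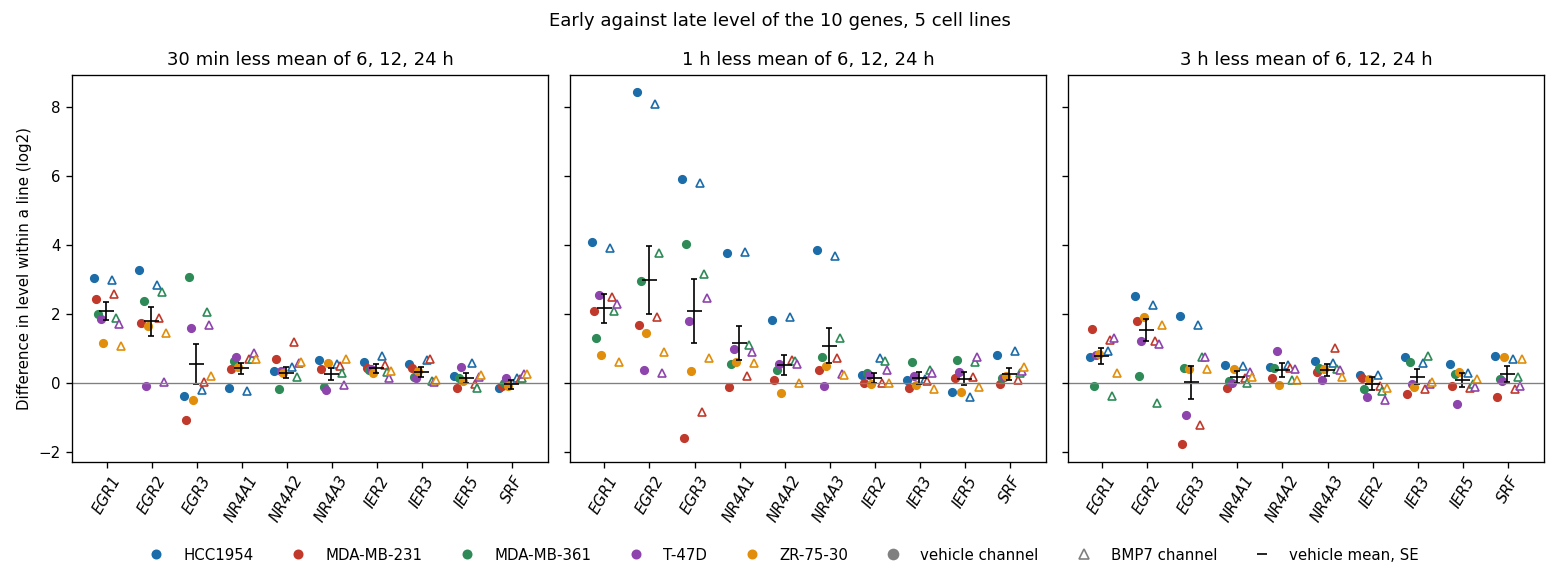
Difference in vehicle level between 30 min, 1 h or 3 h and the mean of 6, 12 and 24 h (log2, vertical axis) for the 10 genes, with a filled circle per cell line for the vehicle channel, an open triangle for the BMP7 channel, and black marks for the vehicle mean and SE of 5 lines. EGR1 was above 0 in all 5 lines at 30 min and at 1 h, and HCC1954 had the largest 1 h differences of EGR1, EGR2, EGR3, NR4A1, NR4A2 and NR4A3.

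The IER genes and SRF were above background on all 30 arrays, and on their brightest probes early and late levels lay closer together. On the second IER5 probe, also above background on all 30 arrays, they did not in every line. That probe exceeded its late level by 2.87 at 30 min in ZR-75-30 and by 1.16 at 3 h in T-47D. At 30 min it was above late in 2 of 5 lines and below in 3, with a mean of 0.55. Their brightest probes lie at chr19:13126586-13126645 (IER2), chr6:30819291-30819350 (IER3), chr1:179326458-179326517 (IER5) and chr6:43256969-43257028 (SRF) of hg18. IER2 exceeded its late level at 30 min by 0.62 (HCC1954), 0.43 (MDA-MB-231), 0.40 (MDA-MB-361), 0.41 (T-47D) and 0.30 (ZR-75-30). The mean was 0.43 (limma, SE 0.13, adjusted p = 0.426). At 1 h its mean was 0.15. IER3 had a 30 min mean of 0.33, also above 0 in 5 of 5 lines (limma, SE 0.14, adjusted p = 0.426), and IER5 one of 0.15. SRF had means of -0.03 at 30 min and 0.27 at 1 h, and its largest 1 h difference was 1.76-fold in HCC1954.

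At 30 min 3 of the 10 members, EGR1, IER2 and IER3, were above their late level in 5 of 5 lines, against 5.38% of all probes. At 1 h 2 members (EGR1 and EGR2) were, against 3.35%, and at 3 h 2 (EGR2 and NR4A3), against 2.75%. For EGR2 and NR4A3 the lines include T-47D, where neither gene was above background on any array. The median difference of the members was 0.38 at 30 min, 0.80 at 1 h and 0.23 at 3 h, whereas over all probes it was -0.06, 0.00 and 0.02. In bulk RNA, fewer cells of a type and less RNA per cell cannot be told apart, and a level is relative to the median probe of its array. The 6 h array of MDA-MB-231 had a median Cy3 signal of 26.9, the lowest of all, where the median over arrays was 102.3. There IER2 stood at 9.74, IER5 at 11.1, IER3 at 8.48 and SRF at 8.40, the highest of the line for each. With 12 and 24 h as the late reference the 30 min mean of EGR1 was 2.16.

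Under BMP7 no member was past the threshold at any time, and most ratios were close to 0. The comparison of BMP7 with vehicle on the same array asks whether the ligand adds to the course that both cultures share. The log2 ratio of EGR1 lay between -0.90 and 1.12 over the 30 arrays with a median of 0.09. In HCC1954 it was 0.06 at 30 min and -0.06 at 1 h, in MDA-MB-231 0.08 and 0.33, in MDA-MB-361 -0.24 and 0.69, in T-47D 0.00 and -0.10, and in ZR-75-30 0.32 and 0.21. The mean over the lines was 0.05 at 30 min (limma, SE 0.08, adjusted p = 0.85) and 0.21 at 1 h (limma, SE 0.13, adjusted p = 0.71). The first hour and the late times of the ratio differed by 0.03 (limma, SE 0.10, adjusted p = 0.932).

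Over the other members the log2 ratio ranged from -0.45 to 0.42 for NR4A1, from -0.63 to 0.44 for NR4A2, from -0.72 to 0.46 for IER2, from -0.48 to 0.48 for IER3, from -0.71 to 0.92 for IER5 and from -0.21 to 0.46 for SRF. None of these reached 2-fold on any array. The less bright genes spread wider, with -1.21 to 0.77 for EGR2, -0.66 to 1.92 for EGR3 and -1.07 to 0.55 for NR4A3. On all 6 arrays of T-47D the ratio of EGR2 is listed at exactly 0, where neither channel was above background.

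Of 299 values of the 10 genes on single arrays, 5 were at least 2-fold up and 2 at least 2-fold down, and over all probes these shares were 0.908% and 0.957%. EGR3 gave 4 of the 5, with 1.43 at 3 h, 1.04 at 6 h and 1.47 at 24 h in MDA-MB-361 and 1.92 at 3 h in T-47D, and on all 4 arrays neither channel was well above background. The other was EGR1 in ZR-75-30 at 6 h, with 1.12, on the array of the second scan batch with the widest spread of ratios (SD 0.612, against a median SD of 0.3). The lower values were EGR2 in MDA-MB-361 at 3 h, -1.21, whose BMP7 signal was not above background, and NR4A3 in MDA-MB-231 at 6 h, -1.07, with neither channel above background. When a signal well above background was required in both channels, EGR1 at 6 h in ZR-75-30 was the only value left.

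**Figure D3:**
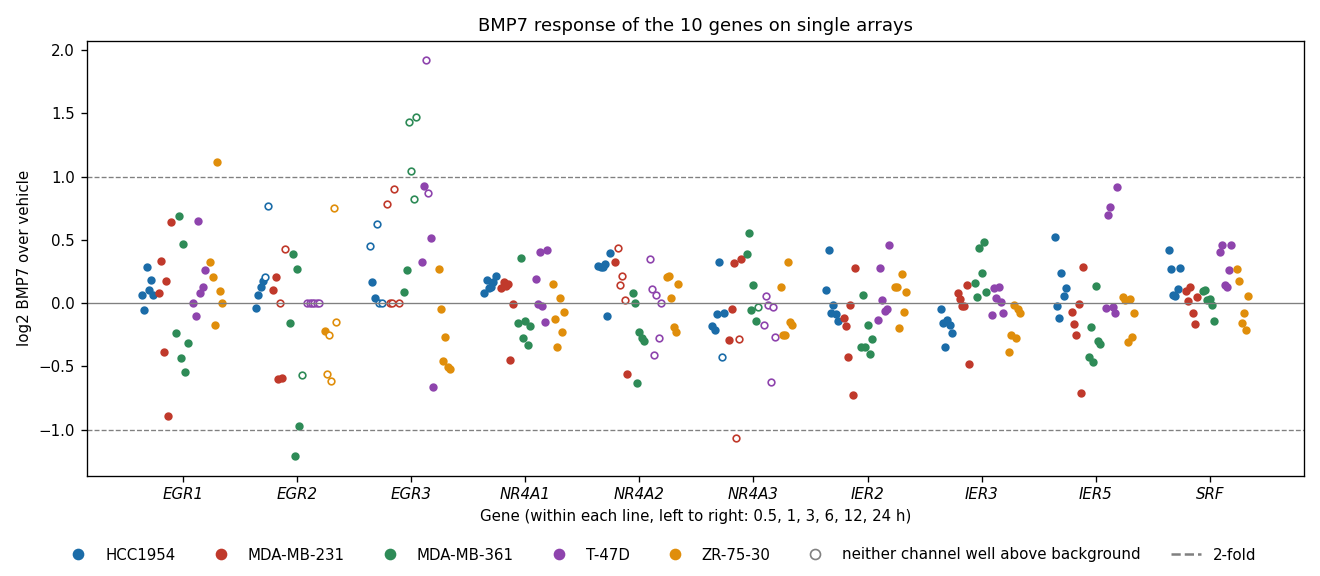
Log2 ratio of BMP7 over vehicle (vertical axis) of the 10 genes on the 30 arrays, 1 point per array, grouped by cell line and ordered by time within each line, with open points where neither channel was well above background and dashed lines at 2-fold. All 4 EGR3 values past 2-fold are open points, and the ratios of SRF all lie between -0.21 and 0.46.

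Tested over the 5 lines, no member passed the threshold at any time (limma). Of all probes 0% were called at 30 min, 0.00489% at 1 h, which is 2 probes, 0% at 3 h and 0% for the mean of 6 to 24 h, and 0% for the first hour against those times. At an unadjusted p under 0.05 there were 2657 up and 2326 down at 30 min, 1773 and 1764 at 1 h, 2150 and 2551 at 3 h, 2770 and 2438 at 6 to 24 h, and 3152 and 3022 for the first hour against late. Among the members 3, 2, 0, 0 and 2 were up at that p in the same order and 0 down.

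NR4A2 and the brightest probe of SRF had ratios above 0 in every line in the first hour. At 30 min the ratio of NR4A2 was 0.30 (HCC1954), 0.32 (MDA-MB-231), 0.08 (MDA-MB-361), 0.35 (T-47D) and 0.21 (ZR-75-30), all above 0. The mean was 0.25 (limma, SE 0.05, adjusted p = 0.236), but in MDA-MB-231 and T-47D the vehicle signal of NR4A2 was not above background at 30 min. At 1 h its mean was 0.21 (limma, adjusted p = 0.517), and its first-hour ratio exceeded the late one by 0.30 (limma, SE 0.06, adjusted p = 0.314). These values include background signals too, since NR4A2 was above background in vehicle on 0 of 6 arrays of T-47D and 1 of 6 of MDA-MB-231. The largest 1 h ratio was that of MDA-MB-231, 0.435, and the smallest that of MDA-MB-361, 0.003.

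SRF was at 0.42 (HCC1954), 0.09 (MDA-MB-231), 0.09 (MDA-MB-361), 0.40 (T-47D) and 0.27 (ZR-75-30) at 30 min. Its mean of 0.26 at 30 min (limma, SE 0.07, adjusted p = 0.304) was not shared by its other probes, with 0.12 and -0.12. At 1 h the mean was 0.20 (limma, adjusted p = 0.541), and the first hour exceeded late by 0.18 (limma, SE 0.04, adjusted p = 0.314). With EGR3, 3 members were above 0 in 5 of 5 lines at 30 min, against 5.81% of all probes. For EGR3 neither channel was above background in HCC1954 and MDA-MB-231 at 30 min, and its mean turned to -0.01 with normexp and median centring. At 1 h NR4A2 and SRF were, against 3.86%, at 3 h and at 6 to 24 h no member was, against 4.72% and 5.47%, and for the first hour against late NR4A2 and SRF were, against 7.38%. A constant dye effect is part of every ratio, since no dyes were swapped, and it drops out of the first hour against late.

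**Figure D4:**
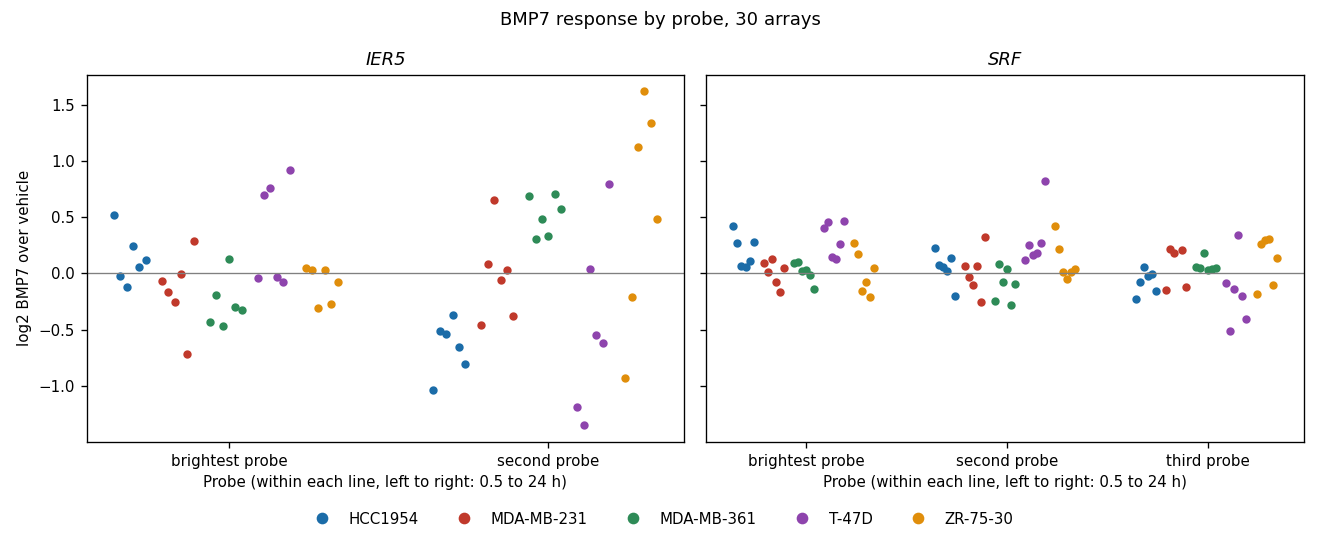
Log2 ratio of BMP7 over vehicle (vertical axis) on the 30 arrays for the probes of IER5 and of SRF, coloured by cell line and ordered by time within a line. The second probe of IER5 lies below 0 on all 6 arrays of HCC1954 and above 0 on all 6 of MDA-MB-361, while its brightest probe stays between -0.71 and 0.92.

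Probes of one gene did not always give the same ratio. The second probe of IER5 was negative on 6 of 6 arrays of HCC1954 with a mean of -0.65 and positive on 6 of 6 of MDA-MB-361 with a mean of 0.52. In ZR-75-30 it stood at 1.12 at 3 h, 1.62 at 6 h and 1.34 at 12 h, and in T-47D at -1.19 at 30 min and -1.35 at 1 h. On the brightest probe of IER5, T-47D stood at -0.04, 0.70, 0.76, -0.03, -0.08 and 0.92 from 30 min to 24 h. All 6 values past 2-fold on the further probes were from IER5. The first-hour ratio of this probe was below the late one in 5 of 5 lines, with a mean of -0.63 (limma, adjusted p = 0.382), where the brightest probe gave 0.04. Which of its probes reads the IER5 message was not tested.

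In vehicle, the lines held these genes at different levels, with EGR1 spanning 49.3-fold and IER3 11.4-fold. For each gene the mean over the 6 time points of a line was compared between the 10 pairs of lines, with the spread over times as error. These times are different conditions and, apart from 1 slide with arrays of both ZR-75-30 and MDA-MB-231, each slide held 1 line, so line and slide cannot be told apart. Of the 100 pairs of the 10 members, 72 were past the threshold (limma, adjusted p under 0.05), while over all probes 44.8% of pairs were.

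The level of EGR1 was 5.51 ± 1.83 in HCC1954, 4.95 ± 0.96 in MDA-MB-361, 4.52 ± 0.57 in ZR-75-30, 3.01 ± 1.16 in MDA-MB-231 and -0.11 ± 1.11 in T-47D (SD, 6 times). HCC1954 and MDA-MB-361 did not differ beyond the spread (limma, adjusted p = 0.2), and neither did MDA-MB-361 and ZR-75-30 (limma, adjusted p = 0.367). The next steps, from ZR-75-30 to MDA-MB-231 (limma, adjusted p = 0.000768) and from MDA-MB-231 to T-47D (limma, adjusted p = 3.18e-08), did. T-47D lay 49.3-fold under HCC1954 (limma, log2 difference 5.62, SE 0.35, adjusted p = 7.36e-13). T-47D and MDA-MB-231 are the lines kept in reduced serum, and serum and line cannot be told apart.

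**Figure D5:**
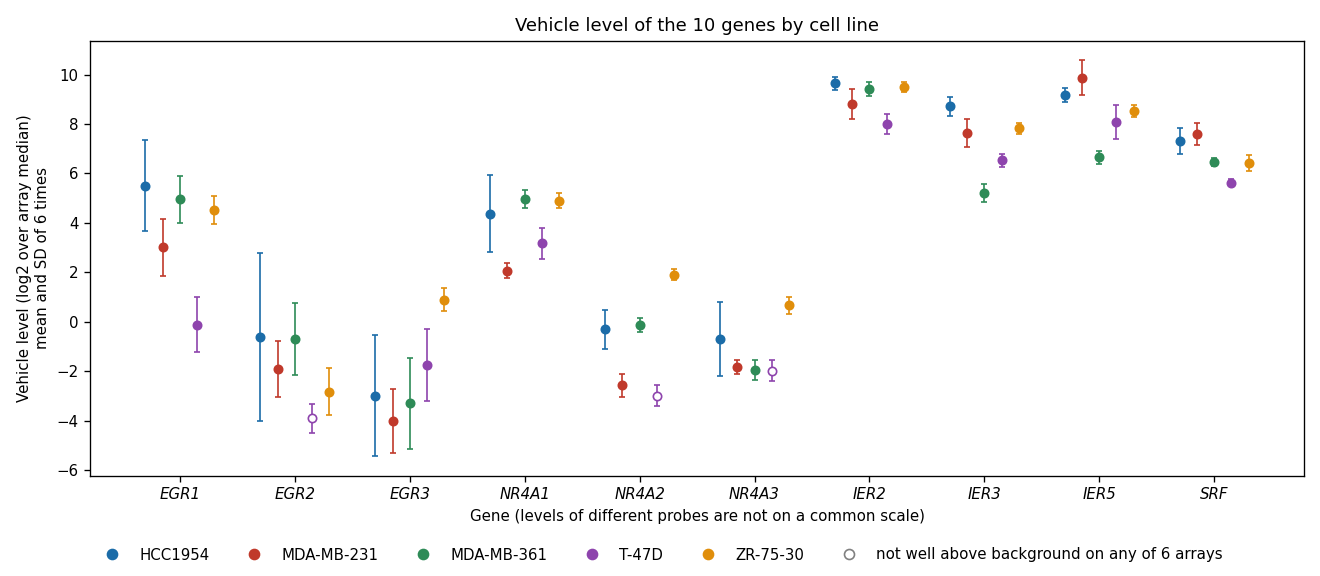
Vehicle level of the 10 genes (log2 over the array median, vertical axis) as mean and SD of 6 time points for each cell line, with open points where no array was well above background. EGR1 ranged from -0.11 in T-47D to 5.51 in HCC1954, and NR4A2 was highest in ZR-75-30 at 1.92.

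NR4A1 was highest in MDA-MB-361 (4.97) and ZR-75-30 (4.90), which did not differ beyond the spread (limma, adjusted p = 0.914), then HCC1954 (4.38), T-47D (3.18) and MDA-MB-231 (2.07). These differences are of the brightest NR4A1 probe, 7 of whose 10 pairs were called, while 0 of 10 pairs were on the second probe, also above background on all 30 arrays, with line means from -0.52 to 0.01. NR4A2 and NR4A3 were highest in ZR-75-30, at 1.92 ± 0.21 and 0.67 ± 0.34 (SD, 6 times). In T-47D neither was above background on any array, so that NR4A2 was at least 13.5-fold and NR4A3 at least 5.21-fold higher in ZR-75-30. These bounds were not tested. The test took the levels as measured, with 29.9-fold for NR4A2 (limma, adjusted p = 5.46e-14) and 6.21-fold for NR4A3 (limma, adjusted p = 2.88e-06). EGR3 was highest in ZR-75-30 as well, at 0.89 ± 0.46 (SD, 6 times), and of EGR2 no array of T-47D was above background. T-47D had the lowest mean of EGR1, IER2 and the brightest SRF probe.

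IER3 differed in 9 of its 10 pairs of lines, with a level of 8.72 in HCC1954, 7.83 in ZR-75-30, 7.62 in MDA-MB-231, 6.54 in T-47D and 5.22 in MDA-MB-361. Only ZR-75-30 and MDA-MB-231 did not differ beyond the spread (limma, adjusted p = 0.471). HCC1954 lay 11.4-fold above MDA-MB-361 (limma, adjusted p = 4.18e-13). IER5 was highest in MDA-MB-231 at 9.87, then 9.17 in HCC1954, 8.54 in ZR-75-30, 8.08 in T-47D and 6.65 in MDA-MB-361, a 9.33-fold range (limma, adjusted p = 1.36e-10). The second IER5 probe ordered the lines differently, with HCC1954 at 8.43, T-47D at 8.36, MDA-MB-231 at 8.25, MDA-MB-361 at 6.49 and ZR-75-30 at 6.26, and its fold from MDA-MB-231 to MDA-MB-361 was 3.40 (limma, adjusted p = 0.00312). IER2 ran from 9.64 in HCC1954, 9.49 in ZR-75-30 and 9.43 in MDA-MB-361, 3 lines that did not differ beyond the spread (lowest adjusted p of limma 0.406), to 8.81 in MDA-MB-231 and 7.995 in T-47D. SRF was 7.58 in MDA-MB-231, 7.32 in HCC1954, 6.48 in MDA-MB-361, 6.43 in ZR-75-30 and 5.63 in T-47D. The second SRF probe had its lowest mean in T-47D too, at 1.525. On the third, also above background on all 30 arrays, MDA-MB-361 was lowest at 0.06. There T-47D stood at 0.58 and ZR-75-30 at 0.38. Of 10 pairs, 8 were past the threshold on the brightest SRF probe, 7 on the second and 3 on the third (limma).

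Most other immediate early genes had their higher vehicle levels in the first hour as well, though none passed the test. Of a list of 32, which holds the FOS, JUN, KLF, DUSP and ATF3 type genes, 0 were past the threshold at 30 min and at 1 h (limma). At an unadjusted p under 0.05, 12 were higher than late and 1 lower at 30 min, and 12 and 0 at 1 h. Over all probes 4.2% were higher at that p at 30 min and 1.96% at 1 h. The median difference of the list was 0.30 at 30 min, 0.49 at 1 h and 0.05 at 3 h. FOS, a subunit of AP-1, exceeded its late level by 3.24 at 30 min and 3.28 at 1 h in 5 of 5 lines (limma, adjusted p = 0.426 and 0.864). FOSB, its relative, had a mean difference of 3.27 at 1 h (limma, adjusted p = 0.273). EGR4, the remaining gene of the EGR family, had mean differences of 1.49 at 30 min and 2.05 at 1 h as measured, but its vehicle signal was above background on 11 of 30 arrays only. For FOSB this number was 22 and for FOS 27.

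The 8 genes of SRF cofactors and EGR corepressors had median differences of -0.14 at 30 min, 0.03 at 1 h and -0.07 at 3 h. Of these, 0 were past the threshold (limma) and 0, 0 and 1 at an unadjusted p under 0.05, against 11.7%, 4.42% and 3.01% of all probes. Under BMP7 the list of 32 genes had median log2 ratios of -0.03, 0.02, 0.01 and 0.00 at 30 min, 1 h, 3 h and 6 to 24 h. The 8 known BMP target genes, by contrast, had medians of 0.00, 0.16, 0.57 and 0.67 at these times, and means above 0 in 8 of 8 genes at 3 h and at 6 to 24 h. Of these genes 0 were past the threshold over all probes at any time (limma), with 6 of 8 up at an unadjusted p under 0.05 at 3 h and 7 of 8 at 6 to 24 h. Over all probes 5.25% and 6.76% were up at that p at these times. The members had medians of 0.03, 0.13, -0.02 and -0.02 at the same 4 times.

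Over the 30 arrays, with the mean of each line taken out, FOS was the gene with the vehicle course most like that of EGR1 among 15022 genes above background on at least 25 arrays in both channels (Pearson r = 0.819). SLC16A5 (0.79), IGFBP2 (0.78), RIBC2 (0.752) and ABHD12 (0.737) followed, and NR4A1 was the highest of the ranked members at rank 34 with 0.661. EGR2, EGR3, NR4A2, NR4A3 and FOSB were above background on fewer than 25 arrays and were not ranked. Without the 1 h array of HCC1954 the value was 0.782 for FOS and 0.534 for NR4A1. The arrays of a line share cells and handling, so these values describe the 30 arrays only.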

How the data were processed

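RNA of 3 pooled cultures per line, time and treatment was hybridized to two-colour Agilent arrays by the authors. The files hold scanner output of Feature Extraction 9.5.1.1, with probe positions on hg18. Per the file headers, the log10 ratios deposited by the authors were made by that software after background correction and dye normalization, and a surrogate stands where a signal was not above background. The intensities deposited by the authors, the processed signals of both channels, had been corrected for background and dye by the same software. A matrix of log2 ratios with array medians of 0, which the authors deposited too, served as an alternative only.

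Ratios were converted to the log2 scale and averaged over the spots of a probe, without controls or outlier-marked spots. The median ratio of every array was 0 already. Vehicle levels are log2 of the Cy3 processed signal over the array median. Of the probes on an array, 55.2% to 69.8% were well above background in the BMP7 channel, and the number of arrays limits the precision. A gene was read from its brightest vehicle probe.

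Samples were grouped by line and time from their labels. Ratios per time, and within-line differences of the vehicle level from the mean of 6, 12 and 24 h, were tested over lines with limma 3.58.1 in R 4.3.3 for every probe with at least 4 lines. Lines were compared pairwise over their 6 arrays. Benjamini-Hochberg adjustment over all probes and a threshold of 0.05 were used. The test was tried on simulated data with known changes first. Pearson correlations are given as descriptions. Python 3.11.15 with numpy 2.4.6, pandas 2.3.3 and matplotlib 3.10.9 served for the rest.

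Named genes are the 10 members, the lists of other immediate early genes, SRF cofactors and EGR corepressors, BMP target genes and line markers, and the genes most like EGR1. Members and lists were chosen with earlier results of these data known. Alternatives were the matrix values, normexp background correction (offset 50) with loess or median centring, other scalings, filters on background and outliers, next brightest probes, 12 and 24 h or 24 h alone as late reference, the BMP7 channel, scan batch, 1 fit of all arrays and leaving out each line.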

Additional observations from a re-analysis of the deposited data

Results flagged for a closer look

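In 2 groups of 5 lines, T-47D stood apart in the BMP7 ratio of IER5. Its log2 ratio was 0.698 at 1 h and 0.761 at 3 h, with a gap to the nearest line of 0.755 and 0.714 of the whole range, past the critical value of 0.71. In the vehicle level, 1 h against late, HCC1954 stood apart for NR4A1 at 3.772 (0.716 of the range) and for NR4A3 at 3.843 (0.79 of the range). These were 4 of 80 groups of 5 lines examined, and chance marks about 1 in 20 such groups. On the second NR4A1 probe HCC1954 stood at 0.838, within the range of the other lines.

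In MDA-MB-361 the BMP7 ratio of IER3 averaged 0.24 and exceeded 0 on 6 of 6 arrays, while it was below 0 on every array of HCC1954, averaging -0.183, and of ZR-75-30, averaging -0.175. The second probe of IER5 had a mean of 0.516 in MDA-MB-361, positive on 6 of 6 arrays, and of -0.651 in HCC1954, negative on 6 of 6. These differences between lines were not tested.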

How the results depend on the processing

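Of 174 counts of members past a threshold under the alternatives, 152 stayed within 1.5 times the count reported. Most of these 152 were counts of 0 that stayed 0. The main tests behind those called hardly any probe, so they say little about stability. Of 1272 values of single members 144 changed sign. With normexp and median centring 6 members were past the threshold in the 1 h ratio (EGR1, NR4A1, IER2, IER3, IER5 and SRF; limma) where 33.3% of all probes were, and 4 in the 3 h ratio where 26.4% were. EGR1 was the 1 member past the threshold in vehicle at 30 min when all 30 arrays entered 1 fit, with or without scan batch as a term, and at 1 h in these fits and in the first scan batch alone. All of these fits take their error from single arrays. Single-array changes of 2-fold or more, 5 up and 2 down, became 1 and 0 after loess on normexp values, 17 and 0 after median centring of them, 1 and 0 where a signal well above background was required of both channels, 1 and 1 where it was required of at least 1, 1 and 0 at 3-fold, and 8 and 4 on the next brightest probes. Leaving out 1 line at a time gave 2 to 5 up, the lowest without MDA-MB-361, and 1 to 2 down, with 1 without MDA-MB-231 or MDA-MB-361. Signs turned with normexp and median centring, to -0.0143 for the EGR3 ratio at 30 min, 0.5748 for IER3 at 1 h, 0.537 for IER2 and 0.6715 for IER5 at 3 h, 0.2828 for IER5 at 6 to 24 h and 0.3401 for IER3 in the first hour against late. On the next brightest probe they turned to 0.2465 for NR4A1 and 0.1568 for IER2 at 6 to 24 h, and to -0.2074 for NR4A1 in vehicle at 30 min. Further signs turned on that probe, among them those of the IER5 ratio at 30 min (0.01 to -0.5841) and in the first hour against late (0.04 to -0.626), and NR4A3 in vehicle at 30 min (0.28 to -0.6086) and 1 h (1.08 to -0.3815), whose second probe was above background on 1 of 30 arrays. The cause was not tested. Pairs of lines past the threshold numbered 51 to 73 of 100 where all 10 members were tested, and 48 over the 6 members left when a signal well above background was required on all 30 arrays. With the series matrix values no count of members past the threshold in the ratios changed, and 6 values were 2-fold up and 2 down. Genes not well above background are limited by their signal. With 1 array per line and time, the replicate numbers pair no samples. The tests of ratios and of times are paired in another way, as they compare channels within an array or times within a line. Pairs of lines were compared across arrays, with the time point as a block.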
